A study of Mus musculus with 12 samples.

Results

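The transglutaminases *Tgm1*, *Tgm2*, *Tgm3*, *Tgm5* and *F13a1* were examined in cartilage explants. Members were every probe of the deposited array table whose gene symbol was one of these 5 names. The table held 6 such probes, for 4 of the 5 genes, among 46632 probes with 34509 symbols in all. *Tgm2* and *Tgm5* had 2 probes each, *Tgm1* and *Tgm3* had 1 each, and no probe carried the name *F13a1* or a synonym of it, so that gene was not analysed here. Of the 6 probes, 2 were detected on at least 4 of the 12 arrays and entered the tests.

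All explants were femoral head cartilage from TS-4/5∆cat mice aged 21 days, in which the catalytic domains of both ADAMTS-4 and ADAMTS-5 had been deleted in frame. Every group, the untreated one included, carried both deletions, and no wildtype explants are described here. After 24 h of pre-culture the explants were left untreated, given 10 ng/ml of the cytokine IL-1α, or given 10 μM retinoic acid, for 3 days. The labels of all groups describe pre-culture with 10% serum, whereas the methods describe culture in serum-free medium. Each treatment had 4 arrays, 2 in batch 1, from the mouse line called Donut, and 2 in batch 2, from the line called Gertrude, so line and batch cannot be told apart. The labels give 4 hips to a well and nothing ties an array to an animal, whereas the methods describe separate, unpooled mice, fewer per treatment than there are arrays. Some arrays may therefore share an animal, and the p-values measure the spread between these arrays, which may in part be technical.

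Transglutaminases join the side chain of a glutamine in one protein to a lysine in another, or to a small amine, and so make covalent cross-links that proteases do not cut easily. TGM2, tissue transglutaminase, is the widely expressed member, acts both inside cells and on matrix outside them, and also binds GTP and integrins, while TGM1, TGM3 and TGM5 are best known for building the cornified envelope of skin and the A subunit of factor XIII cross-links fibrin. In the growth plate, TGM2 and factor XIII A are known from hypertrophic chondrocytes, and *Tgm2* is a long-known retinoid-responsive gene in other cell types.

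The sequences before the start sites of *Tgm1*, the member whose probe crossed the detection limit, and of *Tgm3*, a member whose probe did not, were read for the hexamer AGGTCA, the canonical half-site of nuclear receptors that include the retinoic acid receptors. The sequences are from RefSeq on mouse build GRCm38.p6, 250 bases ending just before an annotated start, printed 5′ to 3′ on the strand of the gene. The set used here held no such window for *Tgm2*, so its promoter could not be read. The 2 windows of *F13a1*, which had no probe, were not read. Capitals mark TGACCT, which is AGGTCA read on the opposite strand. The windows are, for the 2 annotated starts of *Tgm1*, chr14:55713493-55713742 and chr14:55713089-55713338, both on the minus strand, and for *Tgm3*, chr2:130012090-130012339 on the plus strand.
Tgm1, upstream start: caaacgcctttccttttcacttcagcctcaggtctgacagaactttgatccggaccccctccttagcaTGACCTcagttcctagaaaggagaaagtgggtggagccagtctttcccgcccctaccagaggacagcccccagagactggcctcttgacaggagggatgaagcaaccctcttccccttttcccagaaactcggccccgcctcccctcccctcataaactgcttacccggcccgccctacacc
Tgm1, downstream start: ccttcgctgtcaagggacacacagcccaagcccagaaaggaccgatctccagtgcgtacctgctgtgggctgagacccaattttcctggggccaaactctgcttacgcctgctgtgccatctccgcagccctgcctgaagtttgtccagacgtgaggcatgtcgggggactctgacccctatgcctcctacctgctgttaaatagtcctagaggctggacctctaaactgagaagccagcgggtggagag
Tgm3: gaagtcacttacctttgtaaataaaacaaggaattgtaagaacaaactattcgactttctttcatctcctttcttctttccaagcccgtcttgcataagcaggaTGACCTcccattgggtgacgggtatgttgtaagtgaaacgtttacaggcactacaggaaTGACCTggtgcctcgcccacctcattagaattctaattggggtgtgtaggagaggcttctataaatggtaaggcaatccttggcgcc
The upstream *Tgm1* window held 1 such hexamer, with its first printed base 182 bases before the start, and the downstream window held 0. The *Tgm3* window held 2, at 146 and 87 bases before the start, and also TATAAA at 28 bases. The *Tgm5* window, chr2:121085842-121086091 on the minus strand, held 0. Neither of the related hexamers GGTTCA and AGTTCA nor the AP-1 motif TGACTCA was in any of these windows on either strand. Over 32851 windows of the same length, 14.0% held AGGTCA on at least one strand, 30.7% held at least one of the 3 hexamers, 4.46% held TGACTCA and 12.4% held TATAAA. These matches describe the letters alone. In the RefSeq gene order *Tgm5* lies between *Epb42* and *Tgm7*, both of its own family.

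*Tgm2* was the one transglutaminase with a probe detected on all 12 arrays, and its level was higher after both treatments. Its probe ILMN_2692615 read 617.8 and 951.1 in raw intensity on the untreated arrays of batch 1, and 1815.4 and 1522.8 on those of batch 2. The IL-1α arrays of batch 1 gave 3019.7 and 2593.1, those of batch 2 gave 3453.7 and 2390.8. The retinoic acid arrays of batch 1 gave 3094.7 and 2336.2, those of batch 2 gave 5703 and 5549.1. All 8 treated arrays were therefore brighter than all 4 untreated arrays before any normalization. The lowest untreated array was already 14.1 times as bright as the dimmest detected probe on the same array, and the brightest array, retinoic acid in batch 2, was 74.5 times as bright.

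After normalization the log2 intensities of *Tgm2* were 10.17 and 10.51 in batch 1 and 10.26 and 10.56 in batch 2 without treatment, a mean of 10.38 ± 0.19 (SD, n = 4). With IL-1α they were 11.62 and 11.78 in batch 1 and 11.45 and 11.34 in batch 2, a mean of 11.55 ± 0.19 (SD, n = 4). With retinoic acid they were 11.77 and 11.73 in batch 1 and 12.02 and 11.83 in batch 2, a mean of 11.84 ± 0.13 (SD, n = 4). The untreated arrays lay below the others without overlap, whereas the IL-1α and retinoic acid arrays overlapped. The untreated means of the batches differed by 0.07 on the log2 scale, less than the spread of the 4 arrays. The highest normalized value of any probe was 14.24, so the *Tgm2* probe was well below the top of the range.

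**Figure D1:**
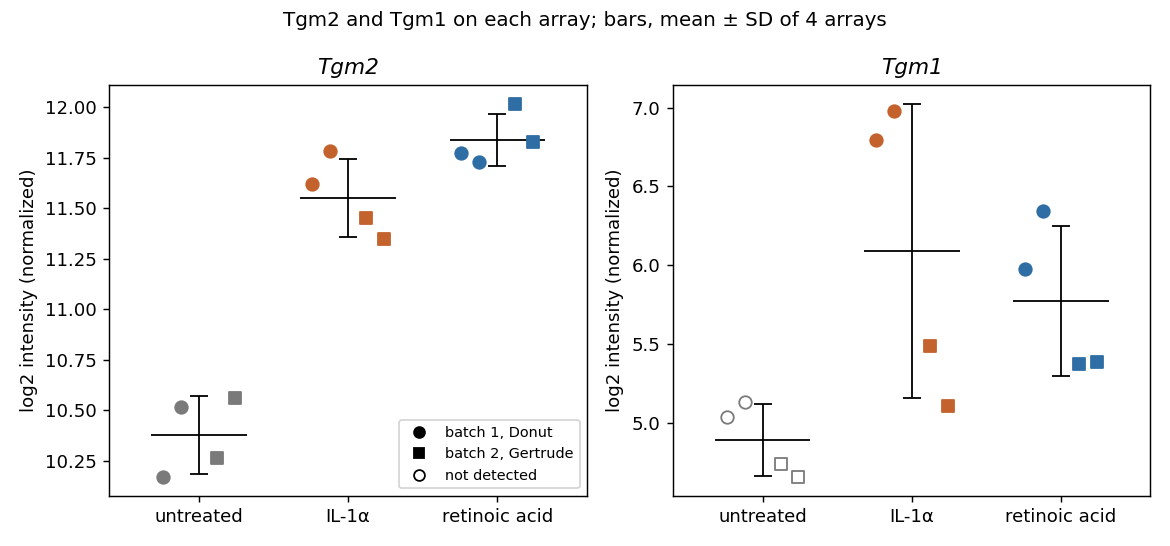
Normalized log2 intensity (vertical axis) of *Tgm2*, probe ILMN_2692615, and *Tgm1*, probe ILMN_2743642, on each of 12 arrays by treatment. Circles are batch 1, squares batch 2, open symbols arrays on which the probe was not detected, and black lines the mean ± SD of 4 arrays; the vertical axes start above 0 and differ between the panels. *Tgm2* is lowest on the 4 untreated arrays, and the IL-1α arrays of *Tgm1* split by batch, at 6.80 and 6.98 against 5.49 and 5.11.

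Retinoic acid raised *Tgm2* 2.75-fold over untreated explants (log2 difference 1.46, SE 0.14, 95% interval 1.16 to 1.76, limma adjusted p = 3.53e-06). The exact two-sided permutation test gave p = 0.0286 for 4 arrays against 4, the smallest value it can give. The log2 difference was 1.41 within batch 1 and 1.51 within batch 2, and the difference between the batches was not called (0.10, limma adjusted p = 0.905), where 2.86% of all tested probes had a called one. Such calls were common on these arrays, with 35.4% of the 18200 tested probes called in this comparison, 18.2% as higher with retinoic acid, and 8.49% lay higher without overlap between the groups. By size, 353 of the 18200 probes, 1.94%, had a larger increase than *Tgm2*.

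IL-1α raised *Tgm2* 2.25-fold over untreated explants (log2 difference 1.17, SE 0.14, 95% interval 0.87 to 1.47, limma adjusted p = 5.41e-05), again with no overlap and an exact permutation p of 0.0286. The log2 difference was 1.36 within batch 1 and 0.99 within batch 2, and the batches were not called different (-0.37, limma adjusted p = 0.381). Here 29.3% of all tested probes were called, 15.2% as higher, and 6.97% lay higher without overlap. Of the called probes 51.9% were higher, a share that fell to 41.2% when the arrays were only scaled to one median. An increase larger than that of *Tgm2* was seen for 279 probes, 1.53%. The 2 comparisons share the untreated arrays.

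Whether retinoic acid gave more *Tgm2* than IL-1α was not resolved. The means differed by 0.29 on the log2 scale (SE 0.14, 95% interval -0.02 to 0.59, limma adjusted p = 0.147), a 1.22-fold difference, and the exact permutation test gave p = 0.0857. In this comparison 31.1% of all tested probes were called, 15.2% higher with retinoic acid and 15.8% lower. Within batch 1 the log2 difference was 0.05 (95% interval -0.30 to 0.39). Within batch 2 it was 0.52 (95% interval 0.18 to 0.87), with both retinoic acid arrays above both IL-1α arrays. The difference between those batch values was itself not called (0.47, limma adjusted p = 0.227).

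**Figure D2:**
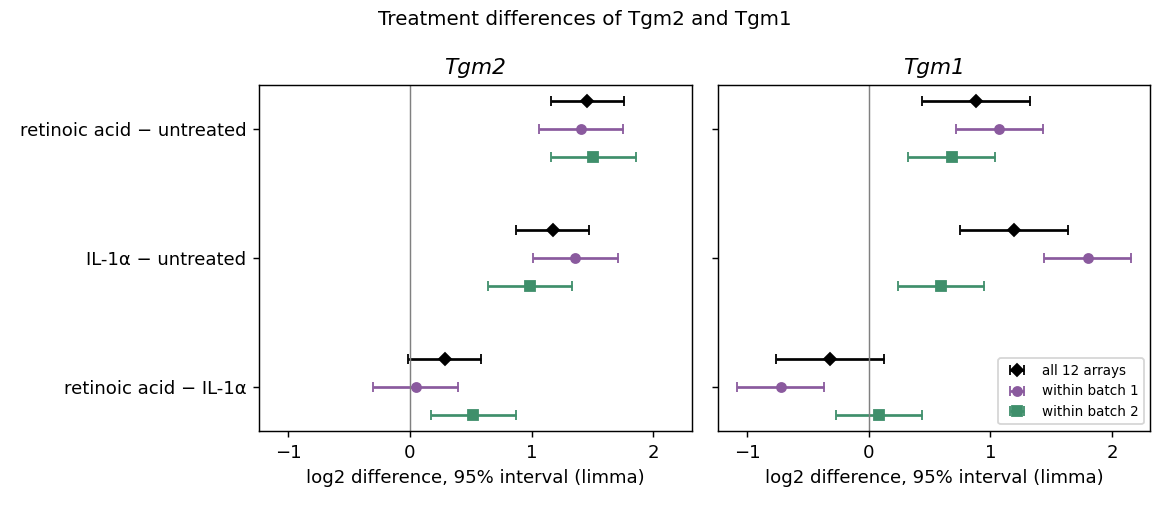
Log2 differences (horizontal axis) for *Tgm2* and *Tgm1* with 95% intervals from limma, over all 12 arrays (diamonds) and within each batch (circles and squares, from the model with treatment by batch terms). Both treatments of *Tgm2* lie above 0 in each batch, and retinoic acid minus IL-1α spans 0 over all arrays; *Tgm1* values against untreated rest on a probe that was not detected without treatment, so they are not sizes of a change.

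The second *Tgm2* probe, ILMN_1250031, was not detected on any of the 12 arrays. Its raw intensity lay between 31.2 and 59.2 and its detection p between 0.128 and 0.482. The probes therefore disagree, and the *Tgm2* values above rest on 1 probe. The probe sequences were not among the files used here, so it is not known which part of the transcript either one reads.

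*Tgm1*, keratinocyte transglutaminase, was near the detection limit. Its single probe, ILMN_2743642, read 40.2 and 44.9 in raw intensity on the untreated arrays of batch 1 and 62.8 and 43.5 on those of batch 2, and it was detected on 0 of these 4 arrays. In the IL-1α explants its intensity was 110.9 and 99.4 in batch 1, against 91.7 and 60.8 in batch 2. In the retinoic acid explants it was 69.8 and 65.8 in batch 1, against 93.7 and 103.6 in batch 2. The probe was detected on 4 of 4 arrays with each treatment. The treated arrays of batch 2 passed the limit narrowly, at 1.04 to 1.25 times the dimmest detected probe of the array, and those of batch 1 read 1.24 to 1.91 times that limit. Because the probe entered the tests only through the treated arrays, a difference from untreated was built into its selection, and its calls add nothing to a count of members.

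On the normalized log2 scale *Tgm1* was 5.04 and 5.14 in batch 1 and 4.74 and 4.66 in batch 2 without treatment, below the detection limit throughout (mean 4.89 ± 0.23, SD, n = 4). With IL-1α it was 6.80 and 6.98 in batch 1 and 5.49 and 5.11 in batch 2 (mean 6.09 ± 0.93, SD, n = 4). With retinoic acid it was 5.98 and 6.34 in batch 1 and 5.38 and 5.39 in batch 2 (mean 5.77 ± 0.47, SD, n = 4). Each treated array lay above both untreated arrays of its own batch, but the lowest IL-1α array of batch 2 was below the highest untreated array of batch 1.

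With the untreated arrays at their detection limit, *Tgm1* was at least 1.57-fold higher with retinoic acid (limma adjusted p = 0.00462) and IL-1α gave at least 1.96-fold more (limma adjusted p = 8.70e-04). These p-values support nothing further, given how the probe was selected. Within batches, the bound for IL-1α was 3.03-fold in batch 1 and 1.27-fold in batch 2, and that for retinoic acid was 1.84-fold and 1.35-fold. The 2 treatments were not called different over all arrays (log2 difference -0.32, 95% interval -0.76 to 0.12, limma adjusted p = 0.276).

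*Tgm1* after IL-1α differed between the batches. Its mean log2 intensity was 6.89 in batch 1 and 5.30 in batch 2. Retinoic acid minus IL-1α was -0.72 in batch 1 and 0.09 in batch 2, and the difference between these, 0.81 (95% interval 0.31 to 1.31), was called (limma adjusted p = 0.0450), as for 8.76% of all tested probes. That call was lost when any of 8 single arrays was left out, the adjusted p then reaching 0.205, and with 4 other settings. The difference between batches in IL-1α minus untreated, -1.20 on the fitted log2 scale, was also called (limma adjusted p = 0.0102, against 4.82% of all probes), but the untreated side of it was not detected. That call was lost with scaling to one median (-0.36, adjusted p = 0.408), with normalization within each batch (-0.60, adjusted p = 0.163) and without IL-1α replicate 2 of batch 1 (adjusted p = 0.0613) or of batch 2 (adjusted p = 0.0648).

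*Tgm3*, epidermal transglutaminase, was not detected on any array, with a raw intensity of 26.6 to 47 and a detection p of at least 0.388. *Tgm5*, a further epidermal member, was not detected with either of its probes, which read 26.3 to 48.5 (ILMN_1218604) and 26 to 44.6 (ILMN_2740782). The probes of *Tgm4*, the prostate transglutaminase, *Tgm6*, *F13b*, the carrier subunit of factor XIII, and *Epb42*, an enzymatically inactive relative in the red cell membrane, were also not detected on any array, and *Tgm7* had no probe. A probe that was not detected gives a limit on signal with that probe and does not show that the transcript was absent.

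**Figure D3:**
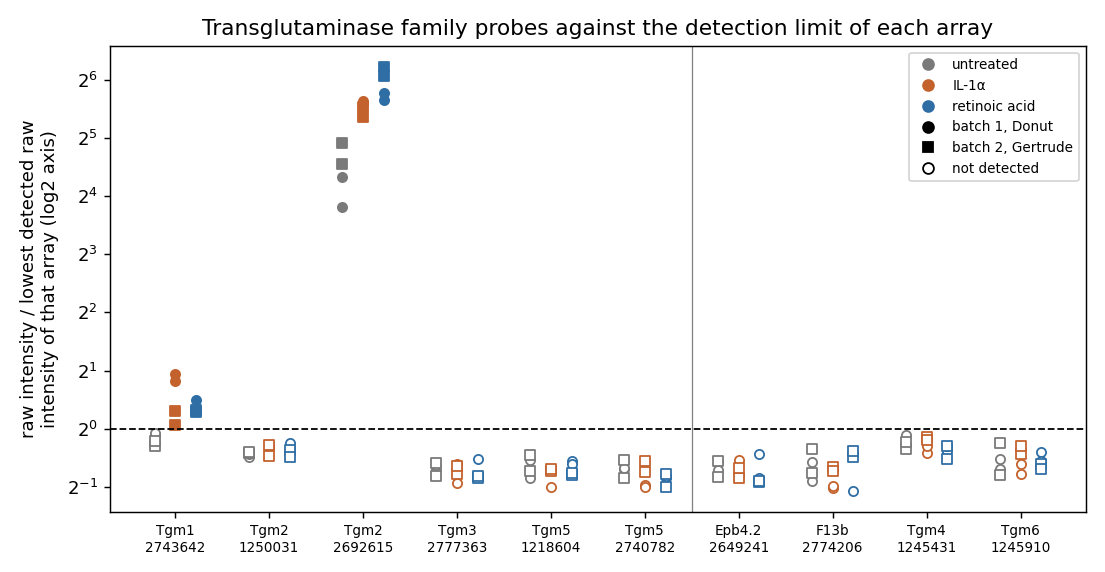
Raw intensity of each family probe divided by the lowest raw intensity of a detected probe on the same array (vertical axis, log2 scale), by treatment and batch; the dashed line is the limit, and probes right of the grey line are family genes outside the 5 named ones. One *Tgm2* probe lies at 14.1 times the limit or more on every array, *Tgm1* crosses the limit with treatment, and the other probes stay below it.

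The genes whose profile was most like that of *Tgm2* were found by Pearson's r over the 12 arrays, after the mean of each batch had been subtracted, among 14316 other genes. They were *Nbl1*, a secreted BMP antagonist (r = 0.980), LOC100048332 (0.977), *Sgk*, a serum- and glucocorticoid-regulated kinase (0.976), *Pim3*, a serine/threonine kinase (0.975), and *Zswim4* (0.973). These values describe the arrays, which share treatments and controls, and carry no test. *Nbl1* rose by 1.46 on the log2 scale with retinoic acid and by 1.23 with IL-1α, close in size to *Tgm2*, whereas *Pim3* rose by 0.58 and 0.41. For *Tgm1* the nearest were *Mybbp1a* (r = 0.973), *Slc25a25* (0.972) and scl0001617.1_31 (0.970), each with a larger IL-1α difference in batch 1 than in batch 2.

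**Figure D4:**
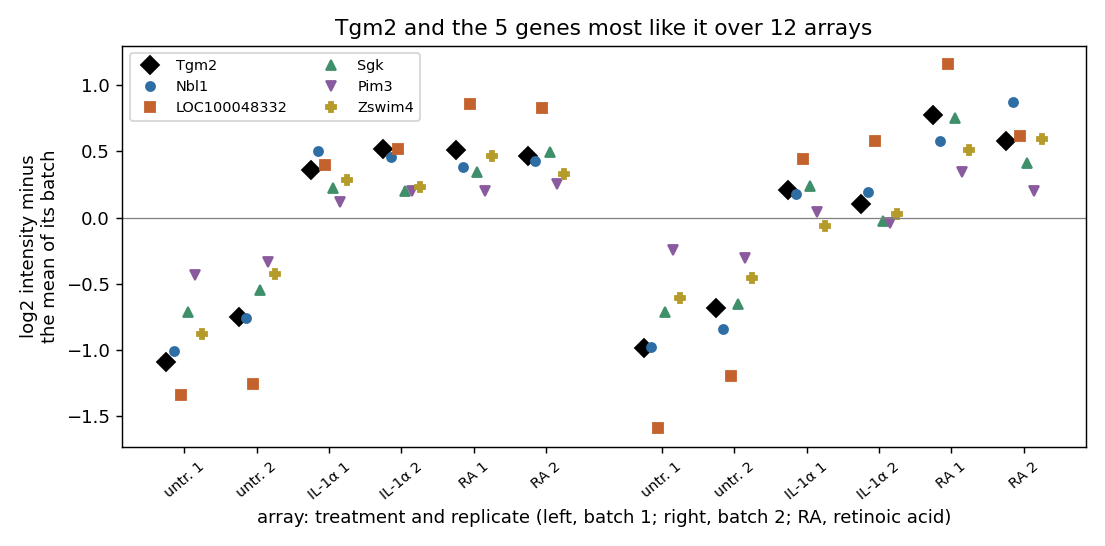
Log2 intensity minus the mean of its batch (vertical axis) for *Tgm2* (black diamonds) and the 5 genes most like it, on 12 arrays ordered by batch and treatment. All 6 genes are below 0 on every untreated array and highest, in batch 2, on the retinoic acid arrays; the genes were chosen for this likeness.

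Matrix and bone proteins that are known transglutaminase substrates fell more often than they rose with either treatment. Of 15 listed, 14 were tested, and with retinoic acid 10 fell and 2 rose (median log2 difference -1.02, against 0.02 over all tested probes and 17.1% of them called lower). With IL-1α 7 fell and 0 rose (median -0.46, against 0.02, and 14.1% called lower). Of these substrates, *Col2a1*, *Col11a1*, *Comp*, *Ibsp* and *Spp1* are also chondrocyte, hypertrophic or osteoblast markers in the lists below. The counts of the substrates and of those markers are therefore not independent. The largest fall was that of *Ibsp*, bone sialoprotein, from 12.51 ± 0.34 to 9.45 ± 0.40 with retinoic acid (SD, n = 4), a log2 difference of -3.06 (SE 0.21, limma adjusted p = 1.58e-07), and it fell by 2.45 with IL-1α (-2.95 in batch 1 and -1.95 in batch 2, limma adjusted p = 0.0169 for the difference between batches). *Col11a1*, a collagen of the cartilage fibril, differed by -2.83 with retinoic acid (-2.16 in batch 1 and -3.51 in batch 2, limma adjusted p = 0.0353 for the difference), and *Comp*, cartilage oligomeric matrix protein, by -2.25 from an untreated level of 13.88 near the top of the range. *Col3a1* fell by 1.88 with IL-1α and was detected on only 2 of 4 arrays with each treatment. The 2 that rose with retinoic acid were *Nid1*, nidogen of basement membranes, by 0.74, and *Spp1*, osteopontin, by 0.52. Fibronectin (*Fn1*), a classic TGM2 partner, fell by 0.98 with retinoic acid and differed by 0.06 with IL-1α, which was not called.

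Among cell-surface partners of TGM2, more rose than fell with retinoic acid. There 5 of 8 tested rose and 1 fell (median 0.47), where 18.2% of all tested probes were called higher and 17.1% lower. The rise was led by *Mmp14*, the membrane-bound metalloproteinase MT1-MMP, which went from 11.01 ± 0.44 to 13.08 ± 0.27 (SD, n = 4; log2 difference 2.07, SE 0.17, limma adjusted p = 8.41e-07). *Lrp1*, an endocytic receptor, rose by 0.60 and the integrin chain *Itgb1* by 0.46, while *Sdc4*, syndecan-4, fell by 0.73. With IL-1α 2 of 8 rose and 1 fell (median 0.19), which is near the background of 15.2% higher and 14.1% lower. Among them were *Itga5*, the alpha chain of the fibronectin receptor, which rose by 0.62, and *Pdgfrb*, a growth factor receptor, which fell by 0.85.

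Around factor XIII and fibrin, 8 of 15 genes were tested, of which 4 rose and 0 fell with retinoic acid (median 0.35) and 2 rose and 1 fell with IL-1α (median -0.15). Of all tested probes, 18.2% were called higher and 17.1% lower with retinoic acid, and 15.2% and 14.1% with IL-1α, which the IL-1α counts are near. *Fga*, the fibrinogen alpha chain, was detected on 1 of 4 untreated arrays and on 4 of 4 with each treatment, through which it entered the tests. Its place among the 4 that rose with retinoic acid and the 2 that rose with IL-1α was therefore built into the filter. The fitted log2 difference of *Fga* was 1.73 with retinoic acid (2.28 in batch 1 and 1.17 in batch 2, limma adjusted p = 0.0180 for the difference) and 0.77 with IL-1α. *Plat*, tissue plasminogen activator, rose by 0.96 with retinoic acid and fell by 0.85 with IL-1α (-0.40 in batch 1 and -1.30 in batch 2, limma adjusted p = 0.0306 for the difference), so that retinoic acid was above IL-1α by 1.81 (limma adjusted p = 4.90e-06). *Thbd*, thrombomodulin, was detected on only 2 of 4 arrays of each group, and its difference of 0.90 with retinoic acid was 0.20 in batch 1 and 1.60 in batch 2, which were called different (limma adjusted p = 0.00759).

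Of the cornified envelope partners of TGM1, TGM3 and TGM5, 11 of 14 had a probe and 4 were tested. With retinoic acid 2 were called higher and 1 lower (median 0.16), where 35.4% of all tested probes were called, and with IL-1α 0 rose and 1 fell (median -0.06), where 29.3% were called. *Sprr1a*, a small proline-rich envelope precursor, was detected on 4 of 4 retinoic acid arrays and on none of the others, and was at least 2.53-fold higher than untreated. It entered the tests only through the retinoic acid arrays, so its place among the 2 was built into the filter and the other one, *Anxa1*, is the only increase free of it. *Anxa1*, annexin A1, rose by 0.76 and *Evpl*, envoplakin, fell by 0.45 with retinoic acid, and *S100a10* fell by 0.51 with IL-1α. Among polyamine enzymes, which handle amine substrates of transglutaminases, 3 of 6 were tested, and *Smox*, spermine oxidase, was the one called, rising by 1.52 with retinoic acid and by 1.63 with IL-1α (list medians -0.17 and 0.27). All called genes of these 5 lists had the same sign in both batches.

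**Figure D5:**
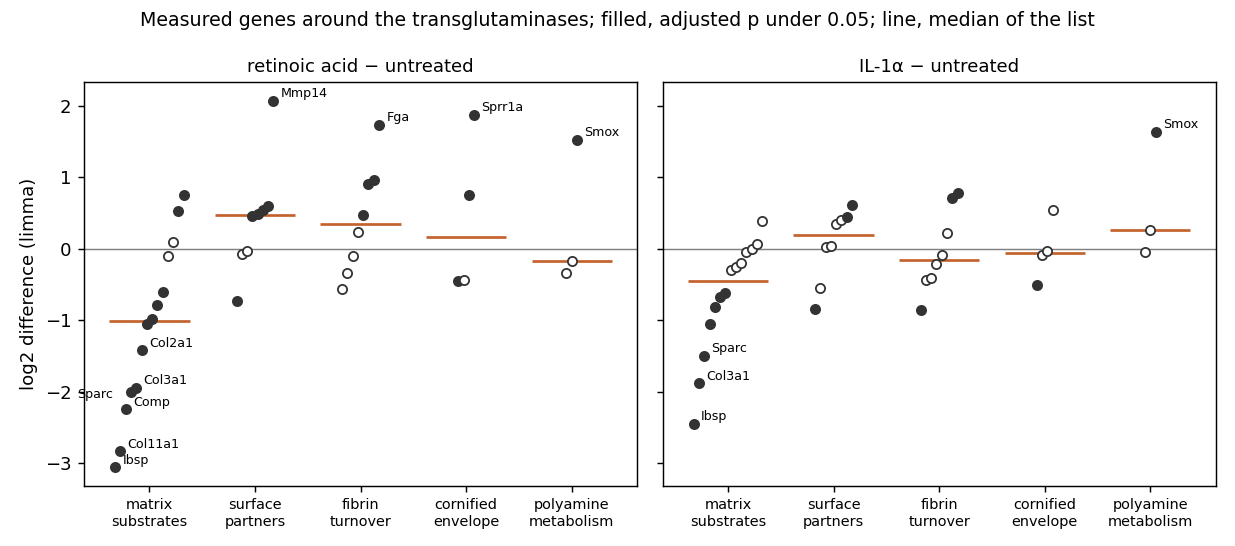
Log2 differences (vertical axis, limma) of the tested genes in 5 lists around the transglutaminases, for retinoic acid minus untreated and IL-1α minus untreated. Filled symbols passed an adjusted p of 0.05, orange lines are list medians, and genes beyond 1.4 in either direction are named; the matrix substrates lie lowest, with a median of -1.02 with retinoic acid.

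The labels were checked with genes that the treatments are known to induce. Of 7 listed for retinoic acid, 6 were tested and 6 were higher with it, and *Crabp2* was not detected on any array. Of 8 listed for IL-1α, 6 were tested and 4 were higher with it, and *Il6* and *Ptgs2* were not tested. *Saa3* (0.79, limma adjusted p = 0.373) and *Mmp3* (0.64, limma adjusted p = 0.0851) were not called. Both were near the top of the range, with means of 13.20 and 13.32 untreated and 13.99 and 13.96 with IL-1α. *Cyp26a1*, which clears retinoic acid, was at least 19.2-fold higher with retinoic acid than without treatment, and *Cyp26b1* rose by 3.94 on the log2 scale. The receptor gene *Rarb* was detected on 1 of 4 untreated and 4 of 4 retinoic acid arrays, with a fitted difference of 2.92 that was 1.79 in batch 1 and 4.05 in batch 2 (limma adjusted p = 1.43e-04 for the difference). IL-1α gave at least 14.1-fold more *Nos2*, inducible nitric oxide synthase, and the chemokine *Cxcl1* rose by 3.47. *Cyp26a1*, *Rarb*, *Dhrs3*, *Stra6* and *Nos2* also entered the tests only through the arrays of the inducing treatment, so their part of these counts was built into the filter. The number of detected probes was 13786 to 14965 on the arrays of batch 1 and 16732 to 19485 on those of batch 2. Arrays of one treatment and batch correlated at 0.983 to 0.995 over probes and those of one treatment in different batches at 0.868 to 0.902, below the 0.932 to 0.968 of different treatments in one batch, so that arrays resembled each other more by batch than by treatment.

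Markers of cell types moved with the treatments, and in whole explants fewer cells of a type and less RNA per cell cannot be told apart. The summed linear intensity of 9 chondrocyte markers was 62430 to 73963 untreated, 35274 to 47075 with IL-1α and 10058 to 15325 with retinoic acid, and of the 8 tested, 8 fell with retinoic acid and 6 with IL-1α, where 17.1% and 14.1% of all tested probes were called lower. The sum of 6 hypertrophic markers was 29980 to 39213 untreated, 22103 to 31009 with IL-1α and 23567 to 32203 with retinoic acid, and it includes *Mmp13*, whose mean of 13.83 to 13.99 in each group is near the top of the range. Of these 6, 4 fell and 1 rose with retinoic acid (median -1.26), and 4 fell and 0 rose with IL-1α (median -1.72). For 13 macrophage markers it was 6305 to 7833, 5076 to 8830 and 9330 to 10514 in the same order, so the retinoic acid arrays were highest. Of the 9 tested, 6 rose and 0 fell with retinoic acid (median 0.73), and with IL-1α 6 fell (median -1.41) and 2 rose, *Cd14* and *Cd68*. Of 6 keratinocyte markers, 5 (*Krt1*, *Krt5*, *Krt10*, *Krt14* and *Krt15*) were not detected on any array, including those on which *Tgm1* was detected. The sixth, *Trp63*, was detected on 3 of 4 untreated, 2 of 4 IL-1α and 0 of 4 retinoic acid arrays. *Trp63* entered the tests only through untreated and IL-1α arrays. Its lower call with retinoic acid (fitted -0.46, limma adjusted p = 0.0154) was therefore built into the filter. With the retinoic acid arrays at their detection limit, the untreated level was at least 0.94 times theirs, so the bound shows no fall. *Trp63* was not called with IL-1α (0.35, limma adjusted p = 0.0650). Of the neutrophil markers, 5 of 5 fell with retinoic acid and 0 were called with IL-1α. The falls of *Elane*, *Mpo*, *Ngp* and *Ltf* were -2.83, -3.70, -1.98 and -1.58 in batch 1. In batch 2 they were only -0.07, -0.50, -0.53 and -0.07. These differences between batches were called (limma adjusted p from 1.65e-06 to 0.00891), and that of *Camp* was not (-0.79 and -0.32, limma adjusted p = 0.351). Of 5 platelet markers with a probe, 2 were tested, with 1 higher with retinoic acid and 1 lower with IL-1α. These small counts are to be read against the same 17.1% and 14.1% called lower, and 18.2% and 15.2% higher. Of 4 endothelial markers 2 fell with IL-1α, of 3 osteoblast markers 2 fell with each treatment, of 4 connective tissue markers 3 fell with each and 1 rose with retinoic acid, and of 3 tested erythroid markers 0 were called against untreated. The part of these shifts in the *Tgm2* and *Tgm1* differences was not tested.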

How the data were processed

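RNA from 12 cartilage explant samples, 4 per treatment over 2 batches, was measured on bead arrays. The authors deposited linear, non-normalized probe intensities and, for each probe and array, a detection score that rises with intensity. The detection p was taken as 1 minus this score. Bead-summarising software is not given in the sources used here. Each column belonged to 1 array, and 0 columns had no sample. Background was estimated from the detection p and removed with neqc (limma 3.58.1, R 4.3.3; quantile normalization, offset 16). A probe had to reach a detection p under 0.05 on 4 or more arrays, which 18200 of 46632 did.

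Treatment and a 4-level factor for batch and biological replicate, as in the study's methods, were fitted with lmFit and eBayes, with Benjamini-Hochberg adjustment over all kept probes at 0.05. A model of treatment by batch gave within-batch values and their difference. Exact two-sided permutation tests compared 4 arrays with 4. A probe undetected on all arrays of a group was given a bound, in which each array of the dimmer group took the probe's signal or that array's lowest detected signal, whichever was higher. Samples with the same batch and replicate number deviated together little in batch 1, where correlations of deviations from the group means were 0.00, 0.06 and 0.01. In batch 2 the correlations were 0.18 (untreated with IL-1α), -0.11 (untreated with retinoic acid) and 0.39 (IL-1α with retinoic acid).

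The members, gene lists and tests were chosen with earlier results of these data known. Named were all members, the other family genes, the 5 genes most like *Tgm2* and 3 most like *Tgm1*, and from each list up to 3 called genes with the largest change with retinoic acid and up to 2 with IL-1α, plus any list gene a result turned on. A listed gene was given by its brightest kept probe. *Itgb1*, *Fn1*, *Nid1*, *Spp1*, *Saa3*, *Mmp3*, *Mmp13*, *Cd14*, *Cd68*, *Ltf* and *Camp* were chosen after their values were seen. On simulated intensities with 200 changed probes, 92% were recovered for retinoic acid against untreated, 89% for IL-1α against untreated and 91% for retinoic acid against IL-1α. There were 6, 5 and 5 others called among 18233, 18229 and 18233. For a simulated log2 change of 1 the recovery was 88%, 78% and 84% in the same order, and for 2 it was 96%, 100% and 98%. The simulation changed far fewer probes than the 29.3% to 35.4% called in the data. It therefore cannot show how the normalization handles such shares. The alternatives were other background corrections, scalings and filters, no replicate block, and leaving out each array in turn. The array number, 4 per treatment, limits the precision.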

Additional observations from a re-analysis of the deposited data

Results flagged for a closer look

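For *Tgm1*, the change from untreated to IL-1α differed between the batches by -1.20 on the log2 scale, batch 2 minus batch 1, by the test of treatment by batch (limma adjusted p = 0.0102). The probe was not detected on any untreated array and was tested only because of the treated ones, so the fitted 1.80 in batch 1 and 0.60 in batch 2 are not sizes of a change and their sign was built into the filter. The call was lost with scaling to one median (-0.36, adjusted p = 0.408), with normalization within each batch (-0.60, adjusted p = 0.163) and without IL-1α replicate 2 of batch 1 (adjusted p = 0.0613) or of batch 2 (adjusted p = 0.0648). The change from IL-1α to retinoic acid differed by 0.81 (limma adjusted p = 0.0450), at -0.72 in batch 1 and 0.09 in batch 2, a call lost in 4 other settings and without any of 8 single arrays. The batches also differ in mouse line and in detected probes, 13786 to 14965 against 16732 to 19485, and their part in this was not tested. No array stood far from the other 3 of its treatment in the 21 groups of 4 that were examined, where chance alone would give about 1 in 20.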

How the results depend on the processing

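Of 291 values recomputed for 15 results, 264 kept their direction and their side of the threshold. The changes of *Tgm2* against untreated kept both in every setting run, at 1.37 to 1.55 with retinoic acid when single arrays were left out, with limma adjusted p from 5.24e-05 to 5.30e-04 for IL-1α, and retinoic acid against IL-1α stayed uncalled at 0.19 to 0.38. Without the replicate block, but with batch, 6752, 5702 and 5938 probes were called in retinoic acid against untreated, IL-1α against untreated and retinoic acid against IL-1α, against 6436, 5334 and 5656 with it, and no call on *Tgm2* or *Tgm1* changed. Without the replicate block and without batch the counts were 2215, 1327 and 1984, and *Tgm1* lost both calls against untreated at the same values of 0.88 and 1.20 (limma adjusted p = 0.227 and 0.111), since the spread between batches then counts as error. Leaving out one array gave 5149 to 6472, 3725 to 5467 and 4594 to 5792 calls.

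The differences between batches were less stable. For *Tgm1* in IL-1α against untreated, the call was lost with scaling to one median (-0.36), with normalization within each batch (-0.60) and without either of 2 IL-1α arrays, replicate 2 of batch 1 or of batch 2, with a range of -1.37 to -1.01 over single arrays left out. The *Tgm1* call in retinoic acid against IL-1α was lost with no background correction (0.59), one median (0.54), normalization within each batch (0.76), no filter (0.81) and without any of 8 arrays, with a range of 0.62 to 1.00. Those were, in batch 1, both untreated, both IL-1α arrays and retinoic acid replicate 1, and, in batch 2, IL-1α replicate 2 and both retinoic acid arrays. The uncalled difference in retinoic acid against untreated turned to 0.18 and 0.16 for *Tgm1* with one median and within-batch normalization. For *Tgm2* it turned to -0.19 with one median, to -0.070 without untreated batch 1 replicate 2 and to -0.049 without untreated batch 2 replicate 1, and the range over single arrays left out was -0.070 to 0.27. *Tgm1* in retinoic acid against IL-1α became called without IL-1α batch 2 replicate 2 (-0.54), in a range of -0.54 to -0.14. These causes were not tested. *Tgm1* was not kept when detection on all 12 arrays or a detection p under 0.01 was required. Signal near background limits *Tgm1* and the 4 undetected member probes.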
